A study of Homo sapiens and Mus musculus with 27 samples.

Results

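The genes of the matrix metalloproteinases (MMP), of the ADAM and ADAMTS proteases and of their inhibitors (TIMP) were followed in 3 RNA-seq experiments on breast cancer cell lines. Members were chosen by symbol alone: every row of a count table named MMP, ADAM or ADAMTS with a number, or TIMP1 to TIMP4, in either letter case. This took 69 of 59453 gene names in each human table and 73 of 55367 in the mouse table. LM2 is an established human breast cancer line and 4T1 an established mouse breast cancer line. In both lines a control (genotype WT), cells overexpressing MKL1 (genotype WT, treatment WT MKL1 OE) and cells overexpressing the form labelled caMKL1 were profiled as polyA RNA. The genotype labels of the caMKL1 replicates run caMKL1, caMKL2 and caMKL3, whereas titles and treatment give caMKL1 for each, so they were taken as 3 replicates of one group. In the third experiment LM2 cells of genotype WT fell into LifeAct negative, low and high groups. LifeAct is a peptide reporter that binds filamentous actin, and the total RNA of these cells was depleted of ribosomal RNA. Each of the 9 groups had 3 libraries. Nothing in the labels ties a replicate to a culture of its own, so p-values measure only the spread between these libraries. The labels give neither the sequences nor the promoters of the constructs.

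MMPs are zinc proteases, secreted or held at the membrane, that cut collagens and other matrix proteins. ADAMs are membrane proteins, many of which shed the outer domains of growth factors, cytokines and adhesion molecules, and ADAMTS proteases are secreted and cut proteoglycans or process procollagen. TIMPs bind and block the active site of most MMPs and of some ADAM and ADAMTS enzymes. MKL1, now named MRTFA, is a coactivator of the transcription factor SRF that monomeric actin holds in the cytoplasm, which is the link between the constructs and an actin reporter. These families are known in breast cancer for their part in invasion through matrix and in the release of growth factors.

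Library totals ran from 15581289 to 32147377 counts over the 27 libraries. Human MRTFA was at 10.2 to 11.5 CPM (counts scaled to library size) in LM2 controls, 140 to 180 with MKL1 and 175 to 257 with caMKL1, and mouse Mrtfa at 37.0 to 41.5, 2085 to 2197 and 595 to 678 CPM. These values may include reads from the constructs. The first replicates of LM2 MKL1 and LM2 caMKL1 stood apart from their groups, with chi-square values of 36.2 to 52.2 and 47.1 to 51.4 per gene against the other replicates. Those differed from each other by 21.3 and 3.11. All LM2 results were recomputed without both, and the calls that changed are given beside the results. Of the line markers, VIM was at 1596 CPM in LM2 controls with KRT8 at 173 and CDH1 at 0.103, while 4T1 controls held Epcam at 217, Cdh1 at 669 and Krt8 at 504 CPM. The epithelial list summed to 426 to 444 CPM in LM2 controls and to 1685 to 2067 with caMKL1, and mitochondrial genes took 7.73 to 8.94% of counts in LM2 controls and 7.76 to 13.6% with caMKL1. In bulk RNA, fewer cells expressing a gene and less RNA per cell cannot be told apart.

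Of the 69 human members, 35 passed the filter on low counts in the LM2 experiment and 43 in the LifeAct experiment, and 43 of the 73 mouse members passed in 4T1. The filter needs counts in only as many libraries as 1 group holds. A member can therefore pass through the group where it is high alone, and the counts of called members include such members. ADAM6, ADAM7, ADAMTS10, MMP26 and MMP27 had no count in any LM2 library, ADAM6 and MMP26 none in any LifeAct library. In 4T1 the 15 members without a count were Adam7, Adam20, Adam23, Adam24, Adam25, Adam29, Adam34, Adam39, Adamts3, Adamts19, Adamts20, Mmp7, Mmp8, Mmp27 and Timp4. A gene is called changed here at an adjusted p under 0.05 in edgeR's quasi-likelihood test with Benjamini-Hochberg adjustment over all tested genes, and every adjusted p below comes from that test. Log2 ratios are given ± SE and CPM values are listed for replicates 1, 2 and 3. Both construct groups of a line are set against the same controls, and both LifeAct groups against the same negative libraries.

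With MKL1, 13 of the 35 tested members changed in LM2 (37.1%, against 12% of all genes tested). Of these 8 rose (22.9%, against 7.24%) and 5 fell (14.3%, against 4.74%). With caMKL1 it was 22 of 35 (62.9%, against 64.9%), a share near the background, with 9 higher (25.7%, against 31.9%) and 13 lower (37.1%, against 33%). Between caMKL1 and MKL1 25 of 35 differed (71.4%, against 64.5%), with 13 higher in caMKL1 (against 32.6%) and 12 lower (against 31.9%). In 4T1, 24 of 43 changed with MKL1 (55.8%, against 34.3%), with 18 higher (41.9%, against 19.3%) and 6 lower (14%, against 15%). With caMKL1 35 of 43 changed (81.4%, against 72%), with 21 higher (48.8%, against 36.2%) and 14 lower (32.6%, against 35.8%). Between 4T1 caMKL1 and MKL1 34 of 43 differed (79.1%, against 66.6%), with 14 higher in caMKL1 (against 33.8%) and 20 lower (against 32.8%). LifeAct low differed from negative in 32 of 43 members (74.4%, against 49.6%), with 11 higher (25.6%, against 26%) and 21 lower (48.8%, against 23.6%). LifeAct high differed in 36 (83.7%, against 71.1%), with 13 higher (30.2%, against 36%) and 23 lower (53.5%, against 35.2%). High differed from low in 30 (69.8%, against 50.3%), with 10 higher (23.3%, against 26.6%) and 20 lower (46.5%, against 23.7%). Changes of at least 2-fold took 22 of 43 members with caMKL1 in 4T1 (51.2%, against 22.1%) and 26 of 43 in LifeAct high (60.5%, against 27.7%). Between LifeAct high and low they took 10 of 43 (23.3%, against 9.31%), and 6 at a minimum count of 50. In LM2 they took 7 of 35 with MKL1 (20%, against 3.76%) and 11 of 35 with caMKL1 (31.4%, against 34.8%). That last count was 17 with library totals in place of TMM scaling and 21 with no filter on low counts. The median log2 ratio of the tested members was 0.26 in 4T1 caMKL1 and -0.43 in LifeAct high, beside -0.02 and -0.03 over all tested genes.

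**Figure D1:**
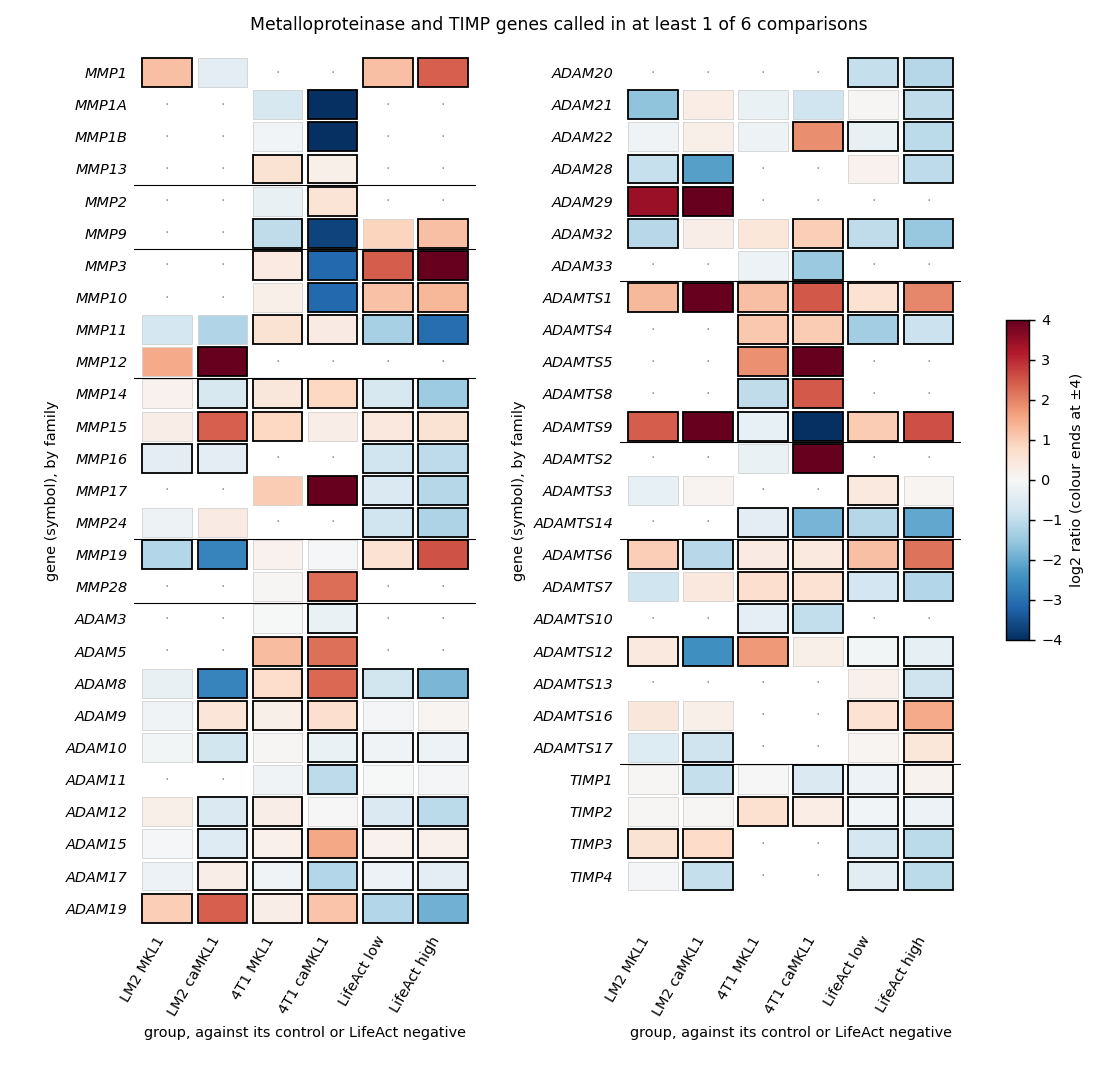
Log2 ratio of each gene in 6 comparisons with the control or LifeAct negative group, for the 53 symbols called in at least 1 of them, with human and mouse genes of one symbol on one row and families divided by lines. Red is higher and blue lower, the colour ends at ±4, a black frame marks a call and a dot a gene not tested. ADAMTS1 is red in all 6 columns, while ADAM8, MMP14 and ADAMTS9 change colour between columns.

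Summed over their members per kilobase of exon, so that long and short genes count alike, the families differed in which group held most. The proteoglycan-cleaving ADAMTS genes stood at 2.48 ± 0.243, 4.24 ± 0.666 and 38.6 ± 1.81 summed CPM per kb (SD, n = 3) in LM2 control, MKL1 and caMKL1, and at 16.1 ± 0.367, 32.2 ± 1.16 and 81.6 ± 5.35 in 4T1. The gelatinases went the other way in 4T1, from 69.7 ± 0.381 in controls to 34.5 ± 1.09 with MKL1 and 5.98 ± 0.3599 with caMKL1. Membrane-type MMPs were at 46.8 ± 1.29, 63.8 ± 0.6300 and 83.05 ± 0.294 in 4T1 and at 277 ± 15.8, 174 ± 0.9303 and 103 ± 3.56 in LifeAct negative, low and high. The sums over ADAMs fell in order in the LifeAct groups, at 172 ± 5.56, 121 ± 1.64 and 93.7 ± 1.99, and those over collagenases were in the reverse order, at 7.68 ± 0.1802, 17.6 ± 0.709 and 39.7 ± 0.764. Single genes made up most of several sums: Mmp9 of the 4T1 gelatinases, MMP14 of the membrane-type MMPs and MMP1 of the LifeAct collagenases. A sum therefore need not describe its other members. Adamts9 fell in 4T1 and MMP15 rose in LifeAct high, each against its family's sum. These sums are descriptions without a test, and levels are not compared between experiments because the tables were scaled separately and the LifeAct libraries were made by another RNA selection.

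**Figure D2:**
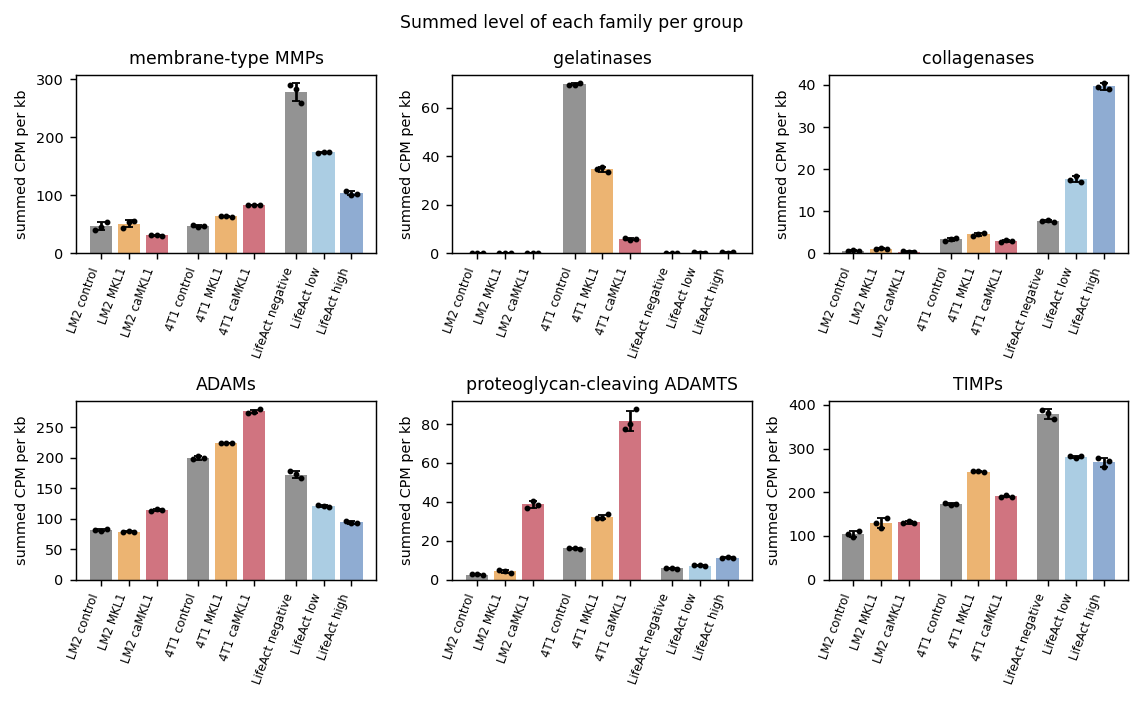
Summed CPM per kb of exon in each family (bars: mean of 3 libraries, error bars: SD, dots: libraries) for the 9 groups. Proteoglycan-cleaving ADAMTS bars are highest in caMKL1 in both lines, gelatinases step down from control to caMKL1 in 4T1, and membrane-type MMPs and ADAMs step down from LifeAct negative to high while collagenases step up.

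The collagenases and the stromelysins MMP3 and MMP10 lie in 1 gene cluster with other MMPs, while MMP11 lies elsewhere. On human chromosome 11 the order is MMP7, MMP20, MMP27, MMP8, MMP10, MMP1, MMP3, MMP12, MMP13 (GRCh38, from MMP7 at chr11:102520508-102530750 to MMP13 at chr11:102942995-102955732). On mouse chromosome 9 it is reversed (GRCm38, from Mmp13 at chr9:7272514-7283331 to Mmp7 at chr9:7692090-7699585), with Mmp1a in the place of MMP1 and Mmp1b between Mmp12 and Mmp3. RefSeq promoter windows (GRCh38.p14) were matched for 39 of the 69 human members, and for MMP7 and MMP10 within this cluster the 250 bases before the start are shown to let the sequences be set beside those of ADAM19 and ADAMTS6, 2 genes that rose with MKL1 in both lines. All 4 are on the minus strand and written 5′ to 3′ toward the start, with AP-1 elements (TGAGTCA or TGACTCA, either strand) and TATA elements (TATAAA, either strand) in capitals.
MMP7 (chr11:102530748-102530997): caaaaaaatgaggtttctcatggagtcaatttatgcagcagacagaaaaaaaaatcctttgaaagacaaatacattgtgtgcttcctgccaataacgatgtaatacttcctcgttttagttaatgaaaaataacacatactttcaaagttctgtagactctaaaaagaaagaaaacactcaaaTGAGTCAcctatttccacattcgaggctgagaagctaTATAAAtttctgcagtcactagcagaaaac
MMP10 (chr11:102780629-102780878): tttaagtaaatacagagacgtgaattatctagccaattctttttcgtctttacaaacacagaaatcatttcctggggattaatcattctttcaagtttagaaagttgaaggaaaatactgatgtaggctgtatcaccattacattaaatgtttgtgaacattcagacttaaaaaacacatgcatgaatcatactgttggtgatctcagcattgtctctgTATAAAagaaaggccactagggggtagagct
ADAM19 (chr5:157575776-157576025): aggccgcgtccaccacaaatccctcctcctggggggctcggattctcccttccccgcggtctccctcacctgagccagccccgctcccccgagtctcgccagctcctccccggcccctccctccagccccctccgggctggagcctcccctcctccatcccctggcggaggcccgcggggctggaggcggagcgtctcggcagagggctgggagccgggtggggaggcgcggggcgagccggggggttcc
ADAMTS6 (chr5:65481921-65482170): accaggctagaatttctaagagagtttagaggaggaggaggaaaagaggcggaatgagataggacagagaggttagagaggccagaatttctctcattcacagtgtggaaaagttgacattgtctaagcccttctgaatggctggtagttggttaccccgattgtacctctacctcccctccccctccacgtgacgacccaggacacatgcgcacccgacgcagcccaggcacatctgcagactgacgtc
MMP7 had an AP-1 element 67 to 61 bases before the start and a TATA element 30 to 25 bases before it, and MMP10 a TATA element 31 to 26 bases before it. Windows were also matched for MMP8, MMP20 and MMP27 of this cluster, which are not shown. Their TATA elements lay 110 to 105 bases before the start in MMP8 and 72 to 67 in MMP20, and MMP27 had none. MMP7 itself had 10 counts over all LM2 libraries and 3 over all LifeAct libraries and was not tested in either. Over all 35116 windows 4.95% held an AP-1 element and 11.5% a TATA element, against 1 and 8 of the 40 member windows. The windows searched for elements also run past the start, and the TATA element of ADAM21 lies 39 to 44 bases after it. The CArG box (CC, 6 of A or T, GG), the binding sequence of SRF, was in 1.29% of all windows and in 0 of the 40 member windows, which says only that these letters are not in these windows. These counts leave out the members without a window, among them ADAMTS1, ADAMTS5, ADAMTS9, MMP1, MMP3, MMP9, MMP19, ADAM9 and TIMP2. The GC content was 33.6% for MMP7, 34.4% for MMP10, 52.4% for ADAMTS6 and 76.4% for ADAM19, with a median of 58.0% over all windows.

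In 4T1, 4 genes of this cluster fell with caMKL1, beside 35.8% of all tested genes, and 1 did not. Mmp7, Mmp8, Mmp12, Mmp20 and Mmp27 were not tested. Mmp3, the stromelysin that cuts many matrix proteins and activates other MMPs, was at 43.4, 48.3 and 53.3 CPM in controls, 60.4, 60.4 and 67.1 with MKL1 and 5.78, 5.16 and 5.71 with caMKL1. Its ranges did not overlap between any 2 of the groups: it rose with MKL1 (log2 ratio 0.37 ± 0.061, adjusted p = 2.9e-05) and fell 8.73-fold with caMKL1 (log2 ratio -3.13 ± 0.086, adjusted p = 5.6e-20). Mmp10, the other stromelysin of the cluster, was at 9.58, 8.79 and 11.1 CPM in controls and 0.889, 1.55 and 0.856 with caMKL1 (log2 ratio -3.13 ± 0.17, adjusted p = 2.8e-14), while its MKL1 libraries overlapped the controls. Mmp1a and Mmp1b, 2 mouse copies of the interstitial collagenase gene, were low in controls. How many reads could map to both was not measured. Mmp1b summed to 75 counts over 3 control libraries and 0 over 3 caMKL1 libraries, at least 22.1-fold lower with the group set to 3 counts, and Mmp1a to 39 and 1 count (ratio 0.02902, exact 95% counting interval 0.0007200 to 0.171). Mmp13, collagenase-3, lies at the end of the same cluster and was not lower. Its libraries were at 5.88, 6.801 and 7.26 CPM in controls, 9.47, 10.02 and 10.6 with MKL1 (log2 ratio 0.59 ± 0.10, adjusted p = 5.4e-05) and 7.33, 8.44 and 7.704 with caMKL1, where the rise was small (log2 ratio 0.24 ± 0.10, adjusted p = 0.0449). That call was lost without control replicate 1 or 2 (adjusted p = 0.202 and 0.0675), caMKL1 replicate 2 or 3 (0.186 and 0.0577) or MKL1 replicate 2 (0.0541).

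In LM2 this cluster was nearly silent. MMP1, the human interstitial collagenase, was at 1.22, 1.55 and 0.904 CPM in controls, 2.97, 3.200 and 2.41 with MKL1 (log2 ratio 1.21 ± 0.25, adjusted p = 0.004503) and 1.11, 0.751 and 0.843 with caMKL1, which overlapped the controls. MMP1 exons share 8.14% of their bases with WTAPP1, and reads there cannot be assigned without strand. MMP3 summed to 25 counts in controls, 31 with MKL1 and 3 with caMKL1, and MMP10 and MMP13 had at most 8 and 15 counts in any library, so none of the 3 was tested. MMP12, macrophage metalloelastase, went from 1 count over the controls to 52 over the caMKL1 libraries (ratio 59.8, exact 95% counting interval 10.3 to 2406). It passed the filter only through the caMKL1 libraries, so its test is not used here, though it is among the members counted as higher with caMKL1.

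In the LifeAct experiment 3 genes of the cluster were higher with LifeAct, beside 26% of all genes in low and 36% in high. The other genes of the cluster were not tested. MMP1 and MMP3 stepped up in order. MMP1 was at 20.6, 21.3 and 19.99 CPM in negative, 47.1, 49.96 and 46.2 in low and 108, 109.8 and 106 in high libraries, 2.31-fold (log2 ratio 1.21 ± 0.061, adjusted p = 9.8e-16) and 5.23-fold (log2 ratio 2.39 ± 0.058, adjusted p = 6.4e-24) above negative. MMP3 was at 0.709, 0.839 and 0.488, 3.33, 3.56 and 3.899 and 20.9, 18.8 and 20.5 CPM, a rise of 29.5-fold from negative to high (log2 ratio 4.88 ± 0.16, adjusted p = 8.7e-21) and of 5.56-fold from low to high (log2 ratio 2.47 ± 0.11, adjusted p = 6.9e-17). No library of a lower LifeAct group reached any of a higher group for either gene. MMP10 was at 1.77, 0.581 and 0.914, 2.24, 2.37 and 2.77 and 3.26, 2.28 and 2.75 CPM and rose in both groups (log2 ratio 1.16 ± 0.28, adjusted p = 8.9e-04 and log2 ratio 1.34 ± 0.27, adjusted p = 8.2e-05), without a call between high and low (0.18 ± 0.23). MMP13 was at 0.355, 0.258 and 0.549 CPM in negative and 0.566, 0.782 and 0.3303 in high libraries and was not tested.

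**Figure D3:**
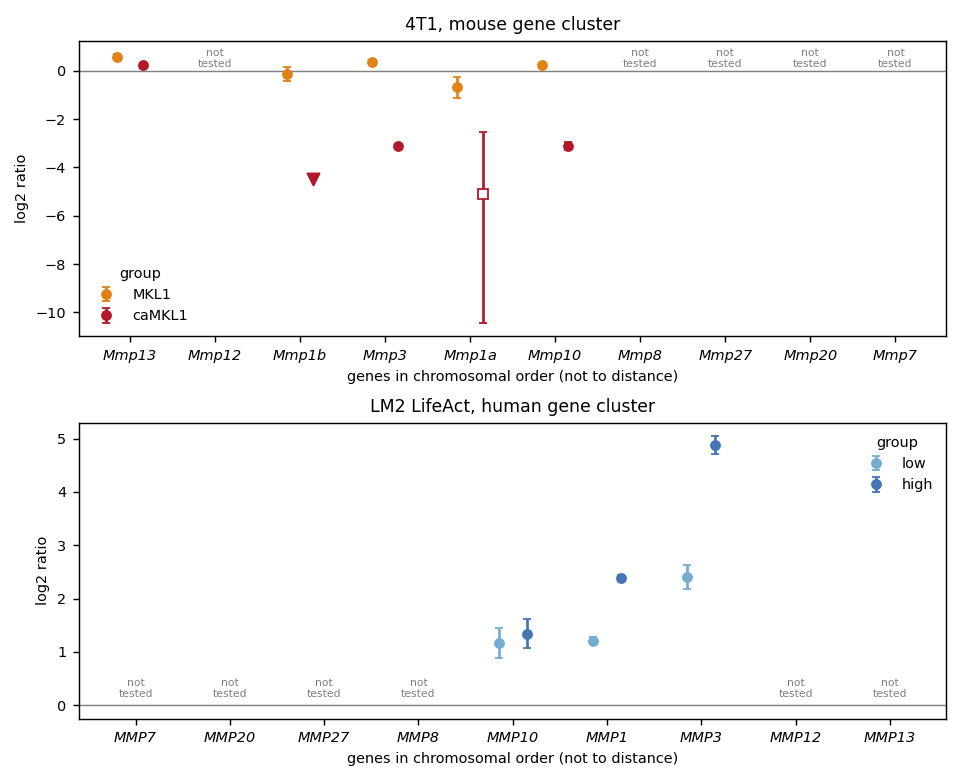
Log2 ratio to control or LifeAct negative for the genes of the MMP cluster in chromosomal order, in 4T1 (top) and the LM2 LifeAct experiment (bottom). Circles are fitted ratios with SE, the triangle is the upper bound for Mmp1b with 0 counts in caMKL1, and the open square with its interval is the count ratio of Mmp1a. Mmp3, Mmp10, Mmp1a and Mmp1b lie below -3 with caMKL1 while Mmp13 lies just above 0, and human MMP10, MMP1 and MMP3 lie above 1 in both LifeAct groups.

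Mmp9, gelatinase B, which cuts denatured collagen and basement membrane collagen IV, was the most abundant secreted MMP of 4T1 controls per length, at 69.2 ± 0.407 CPM per kb (SD, n = 3). Its libraries were at 244, 244 and 247 CPM in controls, 121, 124 and 117 with MKL1 and 19.7, 17.8 and 18.5 with caMKL1. The 3 groups were far apart, with a fall of 2.03-fold with MKL1 (log2 ratio -1.02 ± 0.034, adjusted p = 3.7e-17) and of 13.2-fold with caMKL1 (log2 ratio -3.72 ± 0.043, adjusted p = 2.1e-27). Mmp2, gelatinase A, was at 1.604, 1.700 and 1.505 CPM in controls and 2.49, 1.95 and 2.69 with caMKL1 (log2 ratio 0.56 ± 0.21, adjusted p = 0.0202), a call lost without control replicate 3 (adjusted p = 0.0536) or without caMKL1 replicate 1 or 3 (0.0528 and 0.0873). In LM2, MMP9 had 0, 2 and 0 counts in controls and 1, 0 and 0 with caMKL1 and MMP2 1, 0 and 0 and 1, 1 and 1, and neither was tested. MMP9 stayed under 1 CPM in the LifeAct groups, with 8, 1 and 4 counts in negative and 14, 8 and 13 in high libraries. It was called higher in LifeAct high (log2 ratio 1.20 ± 0.51, adjusted p = 0.0377), but not without negative replicate 2 or 3 (adjusted p = 0.199 and 0.0880) or high replicate 1 (0.0689), and 18.4% of its exon bases are shared with SLC12A5-AS1.

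In 4T1 the summed leukocyte markers rose as Mmp9 fell and Adam8 rose, from 7.87 to 8.95 CPM in controls to 20.6 to 24.6 with MKL1 and 56.6 to 65.3 with caMKL1, for 8 genes. Nearly all of it was Cd68, at 6.25 ± 0.0669, 21.00 ± 1.59 and 60.7 ± 4.47 CPM (SD, n = 3). Ptprc, the pan-leukocyte marker, was at or under 0.0912 CPM in every 4T1 library, and Tyrobp and Cd3e had no count in any. The endothelial list was 0.706 to 0.802 CPM in 4T1 controls and 7.48 to 7.74 with caMKL1, of which Vwf made up 6.83 ± 0.363.

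MMP14 (MT1-MMP), the membrane-bound collagenase that activates gelatinase A together with TIMP2, was the most abundant membrane-type MMP per length in all 3 experiments and moved in opposite directions in the 2 lines. In 4T1 it was at 279, 265 and 272 CPM in controls, 368, 371 and 367 with MKL1 (log2 ratio 0.44 ± 0.027, adjusted p = 5.8e-12) and 478, 484 and 477 with caMKL1 (log2 ratio 0.82 ± 0.027, adjusted p = 2.5e-18). In LM2 it was at 171, 192 and 229 CPM in controls, 192, 232 and 238 with MKL1, which overlapped, and 123, 131 and 116 with caMKL1, below every control (log2 ratio -0.68 ± 0.11, adjusted p = 7.6e-05). The difference between the responses to caMKL1 (4T1 minus LM2, on the log2 scale, as below) was 1.37 ± 0.13, adjusted p = 7.5e-09. Across LifeAct groups MMP14 stepped down, at 1278, 1256 and 1142, 761, 766 and 767 and 462, 427 and 441 CPM, 2.76-fold lower in high than in negative (log2 ratio -1.47 ± 0.041, adjusted p = 1.7e-22).

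The other membrane-type MMPs were less abundant. MMP15 (MT2-MMP) went from 0.7296, 0.721 and 1.13 to 6.37, 3.94 and 3.27 CPM with caMKL1 in LM2 (log2 ratio 2.40 ± 0.29, adjusted p = 2.5e-06), whereas in 4T1 Mmp15 rose with MKL1 (log2 ratio 0.82 ± 0.12, adjusted p = 1.1e-05) and its caMKL1 libraries overlapped the controls (0.26 ± 0.13). Mmp17, an MMP anchored by glycolipid, was at 0.191, 0.192 and 0.113 CPM in 4T1 controls and 7.11, 6.596 and 8.97 with caMKL1, a rise of 44.02-fold (log2 ratio 5.46 ± 0.25). Mmp17 passed the filter on low counts through the caMKL1 libraries. In LifeAct high MMP16 (-1.05 ± 0.076), MMP17 (-1.13 ± 0.21) and MMP24 (-1.22 ± 0.083) fell with MMP14, and MMP15 rose (log2 ratio 0.59 ± 0.12, adjusted p = 9.2e-05). MMP16 fell in LM2 with MKL1 (log2 ratio -0.43 ± 0.13, adjusted p = 0.0348) and caMKL1 (log2 ratio -0.43 ± 0.13, adjusted p = 0.00768). The MKL1 call was lost without any 1 of the control libraries (adjusted p of 0.0869 to 0.118) and without MKL1 replicate 1 or 2 or caMKL1 replicate 2 (0.0926, 0.0702 and 0.0502). MMP24 shares 22.1% of its exon bases with other genes, MMP24OS among them.

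MMP19, an MMP without close relatives in the family, was at 6.201, 6.98 and 6.55 CPM in LM2 controls, 3.17, 2.55 and 2.95 with MKL1 (log2 ratio -1.18 ± 0.19, adjusted p = 8.8e-04) and 1.38, 0.939 and 0.694 with caMKL1 (log2 ratio -2.68 ± 0.23, adjusted p = 4.0e-08), falling in both. With LifeAct, in the same line, it rose in order, at 7.15, 6.84 and 6.77, 10.9, 10.03 and 10.7 and 40.3, 40.1 and 41.4 CPM (log2 ratio 2.55 ± 0.084, adjusted p = 8.0e-21). Mouse Mmp19 was not called with either construct, and its exons share 28.3% of their bases with other genes (human 17.4%). MMP11 (stromelysin-3), which furin activates inside the cell, fell 8.25-fold in LifeAct high, from 8.04, 8.07 and 7.25 to 0.914, 0.717 and 1.16 CPM (log2 ratio -3.04 ± 0.20, adjusted p = 4.5e-14). In 4T1 Mmp11 rose with MKL1 (log2 ratio 0.57 ± 0.062, adjusted p = 9.3e-08) and caMKL1 (log2 ratio 0.32 ± 0.063, adjusted p = 7.6e-05). Mmp28 (epilysin) was at 1.57, 1.19 and 1.24 CPM in 4T1 controls and 6.76, 6.89 and 5.18 with caMKL1 (log2 ratio 2.24 ± 0.17, adjusted p = 2.3e-11).

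Among the ADAMs, of 12 tested in LM2 2 rose and 3 fell with MKL1, beside 7.24% and 4.74% of all genes. With caMKL1 4 rose and 5 fell, beside 31.9% and 33%, which is near the background. Of 16 tested in 4T1, 6 rose and 1 fell with MKL1 (19.3% and 15% of all genes) and 7 rose and 5 fell with caMKL1 (36.2% and 35.8%). Of 13 tested in the LifeAct experiment 1 rose and 10 fell in high, beside 36% and 35.2% of all genes. The median log2 ratio was 0.25 in LM2 caMKL1, -0.12 in 4T1 caMKL1 and -1.06 in LifeAct high, beside -0.05, -0.02 and -0.03 over all genes. Per length ADAM9 was the most abundant ADAM in both lines with either construct and in their controls.

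ADAM19 (meltrin beta), a sheddase of neuregulins, rose with both constructs in both lines. In LM2 it was at 41.5, 41.9 and 48.02 CPM in controls, 97.9, 84.1 and 76.4 with MKL1 (log2 ratio 0.97 ± 0.10, adjusted p = 1.3e-05) and 241, 225 and 218 with caMKL1, 5.21-fold higher (log2 ratio 2.38 ± 0.11, adjusted p = 1.9e-11). In 4T1 it was at 22.3, 20.6 and 21.7, 25.5, 26.1 and 26.2 (log2 ratio 0.27 ± 0.060, adjusted p = 8.8e-04) and 48.3, 45.1 and 49.9 CPM (log2 ratio 1.15 ± 0.055, adjusted p = 3.6e-15). The groups did not overlap in either line, and both 4T1 responses were smaller than those of LM2 (difference -0.73 ± 0.11, adjusted p = 1.2e-04 with MKL1 and -1.36 ± 0.11, adjusted p = 7.3e-10 with caMKL1). ADAM19 went the other way with LifeAct, from 309, 308 and 274 in negative to 127, 138 and 129.5 in low and 82.8, 77.9 and 76.2 CPM in high, a fall of 3.75-fold (log2 ratio -1.91 ± 0.051, adjusted p = 6.6e-23).

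ADAM8, a protease best known from leukocytes and also reported in breast tumours, differed most between the lines among the ADAMs tested in both with caMKL1. In LM2 it was at 8.75, 8.72 and 11.7 CPM in controls and 2.19, 1.27 and 0.992 with caMKL1, a fall of 6.39-fold (log2 ratio -2.68 ± 0.30, adjusted p = 1.1e-06). In 4T1 Adam8 was at 27.8, 30.1 and 26.7 CPM in controls, 47.4, 48.2 and 45.02 with MKL1 (log2 ratio 0.73 ± 0.049, adjusted p = 2.2e-11) and 136, 139.8 and 140.1 with caMKL1, a rise of 4.91-fold (log2 ratio 2.30 ± 0.045, adjusted p = 6.6e-23). The difference between the caMKL1 responses was 4.84 ± 0.29, adjusted p = 3.9e-12. With LifeAct ADAM8 fell in order, at 336, 318 and 302, 190.0, 187 and 182 and 94.9, 83.7 and 88.2 CPM (log2 ratio -1.84 ± 0.048, adjusted p = 4.0e-23). The leukocyte list summed to 10.1 to 12.2 CPM in LifeAct negative and 3.83 to 6.496 in high, and to at most 2.90 CPM in any LM2 library of the construct experiment. The part of such cells in these ADAM8 values was not tested.

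ADAM17 and ADAM10 are the sheddases of TNF, EGF receptor ligands and Notch. In 4T1 Adam17 was at 162, 167 and 164 CPM in controls, 142, 147 and 149.8 with MKL1 (log2 ratio -0.17 ± 0.033, adjusted p = 2.7e-04) and 73.2, 71.7 and 74.5 with caMKL1, 2.25-fold lower (log2 ratio -1.17 ± 0.034, adjusted p = 2.3e-19). In LM2 ADAM17 was at 66.9, 66.4 and 71.6 in controls and 72.1, 85.7 and 87.5 with caMKL1, where a small rise (log2 ratio 0.26 ± 0.100, adjusted p = 0.0327) turned to -0.16 with library totals in place of TMM scaling (adjusted p = 0.144). That call was also lost without control replicate 1 or 2 (0.100 and 0.111) or caMKL1 replicate 2 or 3 (0.109 and 0.119). Human ADAM17 shares 14.4% of its exon bases with other genes. ADAM10 fell with caMKL1 in both lines, in LM2 from 281, 275 and 285 to 159.8, 169.6 and 165 CPM (log2 ratio -0.77 ± 0.082, adjusted p = 5.6e-07) and in 4T1 from 260.4, 276 and 274 to 221, 227 and 220.0 (log2 ratio -0.28 ± 0.030, adjusted p = 1.3e-08). In LifeAct high ADAM17 (-0.43 ± 0.052) and ADAM10 (-0.24 ± 0.045) both fell slightly.

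Of the remaining ADAMs, Adam15 rose in 4T1 from 49.8, 46.03 and 42.1 to 131, 136 and 135 CPM with caMKL1 (log2 ratio 1.55 ± 0.050, adjusted p = 1.4e-18). Mouse Adam15 shares 20.6% of its exon bases with 4731419I09Rik. In LM2 ADAM15 was at 25.5, 28.6 and 26.5 in controls and 25.7, 15.4 and 14.9 with caMKL1, with overlapping ranges (log2 ratio -0.52 ± 0.17, adjusted p = 0.0155), and that call was lost without control replicate 2 (adjusted p = 0.0521) or caMKL1 replicate 2 or 3 (0.0849 and 0.0865). ADAM9 rose with caMKL1 in both lines (0.50 ± 0.087 in LM2 and 0.66 ± 0.026 in 4T1), but with library totals the LM2 rise was 0.09 with an adjusted p of 0.288. ADAM28 fell in LM2 with caMKL1 (-2.19 ± 0.34) and with MKL1 (log2 ratio -0.93 ± 0.29, adjusted p = 0.0475). The MKL1 call was lost without both outlying first libraries (-0.72, adjusted p = 0.0625) and without any 1 of the MKL1 or control libraries, or without caMKL1 replicate 2 (0.0574 to 0.247). ADAM32 fell with MKL1 in LM2 (-1.10 ± 0.19) and in LifeAct high (-1.51 ± 0.13). ADAM21 fell with MKL1 in LM2 at under 1 CPM (log2 ratio -1.61 ± 0.40, adjusted p = 0.0154), a call lost without MKL1 replicate 2 or control replicate 2 or 3 (0.0522, 0.0845 and 0.0687). ADAM22, which lacks protease activity and binds LGI proteins, rose in 4T1 with caMKL1 (1.87 ± 0.23) and fell in LifeAct high (-1.09 ± 0.085). Adam33 (-1.47 ± 0.17) and Adam11 (-1.06 ± 0.22) fell in 4T1 with caMKL1, and ADAM12 fell in LM2 with caMKL1 (-0.56 ± 0.17) and in LifeAct high (-1.09 ± 0.11). ADAM29, a testis ADAM, went from 2 counts over the LM2 controls to 33 over the caMKL1 libraries (ratio 18.96, exact 95% counting interval 4.85 to 163) and to 29 over the MKL1 libraries (ratio 12.7, exact 95% counting interval 3.22 to 110.2).

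The ADAMTS genes that cut the proteoglycans versican and aggrecan included the member with the largest fitted rise, ADAMTS9 in LM2 with caMKL1. ADAMTS1 and ADAMTS5 are neighbours on human chromosome 21 (ADAMTS1 at chr21:26835755-26845409, ADAMTS5 at chr21:26917922-26967088, GRCh38) and on mouse chromosome 16 (Adamts1 at chr16:85793827-85803113, Adamts5 at chr16:85856173-85901828, GRCm38). ADAMTS1 was at 9.52, 8.12 and 6.85 CPM in LM2 controls, 22.8, 21.7 and 15.5 with MKL1 (log2 ratio 1.29 ± 0.15, adjusted p = 2.6e-05) and 215, 242 and 226 with caMKL1, 27.9-fold higher (log2 ratio 4.80 ± 0.16, adjusted p = 5.6e-13). Adamts1 was at 55.98, 56.2 and 57.3 CPM in 4T1 controls, 126, 127 and 138 with MKL1 (log2 ratio 1.21 ± 0.053, adjusted p = 6.0e-15) and 295, 308 and 349 with caMKL1 (log2 ratio 2.49 ± 0.051, adjusted p = 1.5e-22). In the LifeAct groups it was at 14.2, 14.6 and 14.9, 22.8, 20.8 and 22.4 and 57.4, 56.7 and 56.3 CPM (log2 ratio 1.96 ± 0.068, adjusted p = 2.8e-20). So ADAMTS1 rose in each group compared with its control or negative group, with no overlap between ordered groups. The caMKL1 response was smaller in 4T1 than in LM2 (difference -2.44 ± 0.16, adjusted p = 1.7e-11).

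Adamts5, an aggrecanase, rose beside its neighbour in 4T1, at 3.78, 4.14 and 3.35 CPM in controls, 12.7, 13.7 and 13.5 with MKL1 (log2 ratio 1.82 ± 0.088, adjusted p = 4.6e-14) and 73.96, 74.3 and 72.2 with caMKL1, 19.5-fold above the controls (log2 ratio 4.28 ± 0.070, adjusted p = 2.2e-24). In LM2 ADAMTS5 had 0 counts in the controls and 3, 2 and 8 with caMKL1 and was not tested. Adamts8 had a different order in 4T1: 8.51, 9.53 and 7.98 CPM in controls, lower at 4.91, 3.98 and 4.01 with MKL1 (log2 ratio -1.02 ± 0.10, adjusted p = 2.9e-08) and higher at 48.2, 47.1 and 48.5 with caMKL1 (log2 ratio 2.46 ± 0.071, adjusted p = 1.7e-19). The MKL1 and caMKL1 groups lay on opposite sides of the controls with no overlap. Adamts4, the other aggrecanase, rose alike in both (1.09 ± 0.085 and 1.03 ± 0.085), and the caMKL1 and MKL1 groups overlapped (-0.06 ± 0.079).

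ADAMTS9, a versican-cleaving protease at chr3:64515654-64688000 on human chromosome 3, changed in opposite directions in the 2 lines. In LM2 it was at 0.0811, 0.228 and 0.226 CPM in controls, 1.201, 1.17 and 0.653 with MKL1 (log2 ratio 2.42 ± 0.36, adjusted p = 3.2e-04) and 59.7, 62.2 and 63.1 with caMKL1, a rise of 333-fold from a level near the detection limit (log2 ratio 8.38 ± 0.24, adjusted p = 1.9e-13). In 4T1 Adamts9 was at 15.2, 15.2 and 15.2 CPM in controls, 12.9, 12.1 and 11.6 with MKL1 (log2 ratio -0.32 ± 0.081, adjusted p = 0.003196) and 0.133, 0.258 and 0.285 with caMKL1, a fall of 65.01-fold (log2 ratio -6.02 ± 0.17, adjusted p = 7.5e-20). Mouse Adamts9 shares 12% of its exon bases with other genes. The difference in response was -2.75 ± 0.35, adjusted p = 1.3e-05 with MKL1 and -14.53 ± 0.28, adjusted p = 1.0e-19 with caMKL1. In LifeAct high ADAMTS9 rose, from 0.236, 0.452 and 0.366 to 2.13, 2.41 and 1.82 CPM (log2 ratio 2.58 ± 0.34, adjusted p = 1.1e-07). The rise in LifeAct low (log2 ratio 1.03 ± 0.41, adjusted p = 0.0373) was lost without low replicate 2 or 3 (adjusted p = 0.0631 and 0.161) or negative replicate 1 or 3 (0.152 and 0.0692).

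**Figure D4:**
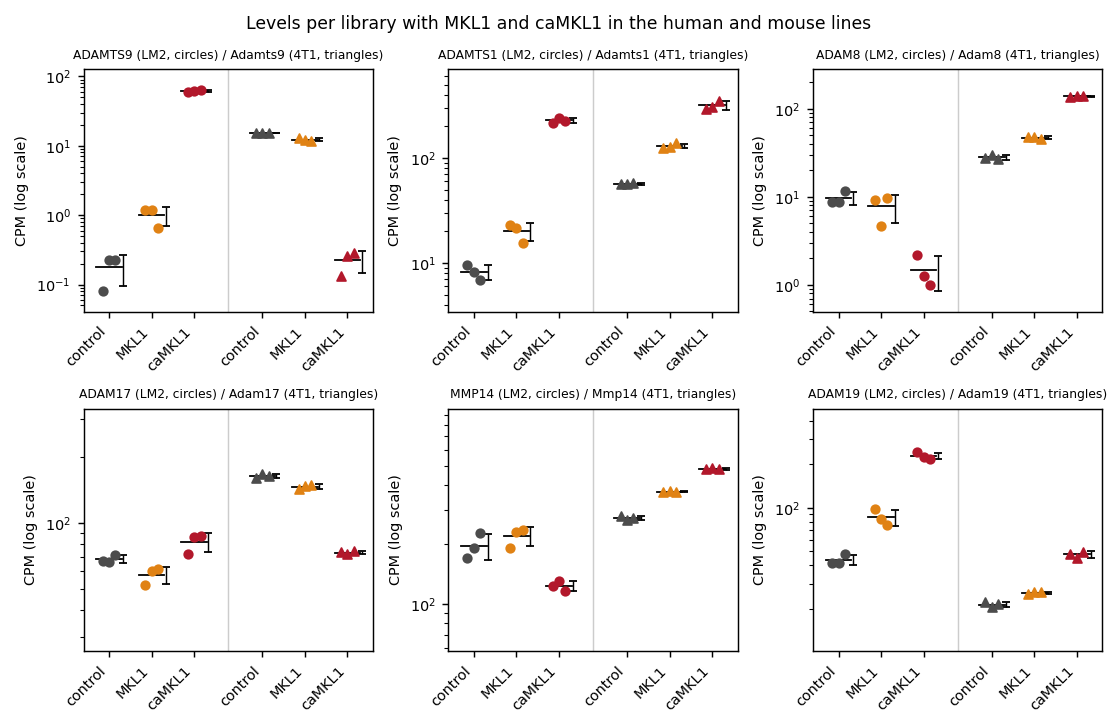
CPM per library on a log scale for 6 genes in LM2 (circles) and 4T1 (triangles), by control, MKL1 and caMKL1, with the mean as a line and the SD as a bar beside it. ADAMTS1 and ADAM19 rise from control to caMKL1 in both lines, while ADAMTS9, ADAM8, ADAM17 and MMP14 end on opposite sides of their controls, by a small margin in the case of human ADAM17.

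ADAMTS6, a secreted protease that acts on microfibril and cell surface proteins, rose with MKL1 in both lines and went opposite ways with caMKL1. In LM2 it was at 47.3, 50.1 and 38.9 CPM in controls, 85.9, 98.5 and 84.5 with MKL1 (log2 ratio 0.98 ± 0.10, adjusted p = 1.4e-05) and 21.3, 20.6 and 21.3 with caMKL1 (log2 ratio -1.11 ± 0.11, adjusted p = 2.3e-07), so that the construct groups lay on either side of the controls. In 4T1 Adamts6 was higher with both, at 19.4, 20.4 and 20.7, 26.1, 26.8 and 23.4 (log2 ratio 0.34 ± 0.064, adjusted p = 2.0e-04) and 26.2, 27.7 and 25.8 CPM (log2 ratio 0.40 ± 0.063, adjusted p = 5.9e-06). In the LifeAct groups ADAMTS6 rose in order, at 11.5, 12.7 and 12.9, 27.5, 30.6 and 28.2 and 57.8, 54.5 and 54.9 CPM (log2 ratio 2.17 ± 0.074, adjusted p = 1.4e-20). ADAMTS12, which cuts cartilage oligomeric matrix protein, had a like order in LM2, at 39.4, 40.8 and 41.8 CPM in controls, 50.8, 54.9 and 56.02 with MKL1 (log2 ratio 0.41 ± 0.11, adjusted p = 0.0253) and 8.87, 6.39 and 6.84 with caMKL1 (log2 ratio -2.46 ± 0.12, adjusted p = 7.1e-11). Its MKL1 call was lost with library totals (adjusted p = 0.127), without any 1 of the control libraries (0.0788 to 0.108) and without MKL1 replicate 3 (0.0601). Adamts12 rose with MKL1 in 4T1 from a low level (log2 ratio 1.73 ± 0.34, adjusted p = 3.0e-04).

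Adamts14, which removes the amino-terminal propeptide of procollagen, fell in 4T1 from 41.5, 40.7 and 39.8 CPM in controls to 30.6, 31.5 and 28.3 with MKL1 (log2 ratio -0.43 ± 0.056, adjusted p = 1.2e-06) and 10.5, 11.1 and 11.7 with caMKL1 (log2 ratio -1.87 ± 0.064, adjusted p = 3.6e-18). Adamts2, of the same function, went from 3 to 62 counts over the groups (ratio 23.4, exact 95% counting interval 7.64 to 116). ADAMTS14 fell in LifeAct high (log2 ratio -2.08 ± 0.21, adjusted p = 5.6e-10). Adamts10, a partner of fibrillin microfibrils, fell in 4T1 with MKL1 (-0.39 ± 0.065) and caMKL1 (-0.99 ± 0.068), and Adamts7 rose with both (0.68 ± 0.13 and 0.62 ± 0.13). In LifeAct high ADAMTS16 rose (1.53 ± 0.083) and ADAMTS7 (-1.17 ± 0.11) and ADAMTS12 (-0.36 ± 0.048) fell. ADAMTS4 was at 1.12, 1.097 and 1.16 CPM in LifeAct negative and 0.382, 0.475 and 0.433 in low (log2 ratio -1.38 ± 0.37, adjusted p = 0.00253). ADAMTS13, which cuts von Willebrand factor, was called lower in LifeAct high (log2 ratio -0.83 ± 0.33, adjusted p = 0.0284), a call lost without high replicate 1 (adjusted p = 0.133) or negative replicate 1 or 3 (0.0567 and 0.0535). ADAMTS17 fell in LM2 with caMKL1 (-0.82 ± 0.24) and rose in LifeAct high (0.50 ± 0.12).

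TIMPs were the most abundant family per length in LM2 controls and in the LifeAct experiment. TIMP3, the TIMP that binds to matrix and also inhibits ADAM17 and ADAMTS enzymes, was at 219, 184 and 252 CPM in LM2 controls, 311, 296 and 369 with MKL1 (log2 ratio 0.58 ± 0.12, adjusted p = 0.00413) and 350.4, 377 and 380.4 with caMKL1 (log2 ratio 0.76 ± 0.12, adjusted p = 2.9e-05), above every control in both. In the LifeAct groups it was at 891, 891 and 869, 552, 541 and 546 and 425, 411 and 418 CPM and fell (log2 ratio -1.08 ± 0.035, adjusted p = 6.0e-21). TIMP1, a secreted inhibitor, fell with caMKL1 in both lines, from 17.8, 19.2 and 18.9 to 12.8, 9.297 and 6.396 CPM in LM2 (log2 ratio -0.96 ± 0.24, adjusted p = 0.00231) and from 35.6, 36.8 and 35.2 to 23.4, 24.5 and 22.1 in 4T1 (log2 ratio -0.62 ± 0.058, adjusted p = 1.2e-09). In the LifeAct groups TIMP1 was at 137, 127 and 123, 109, 107 and 109 and 150.3, 129 and 144 CPM, lower in low (log2 ratio -0.25 ± 0.052, adjusted p = 2.2e-04) and called slightly higher in high with overlapping ranges (log2 ratio 0.13 ± 0.051, adjusted p = 0.0236), a call lost without high replicate 1 or 3 (adjusted p = 0.150 and 0.0833) or negative replicate 2 or 3 (0.0727 and 0.0722). TIMP4 fell in LM2 with caMKL1 (log2 ratio -0.96 ± 0.26, adjusted p = 0.003801) and in LifeAct high (log2 ratio -1.08 ± 0.12, adjusted p = 4.7e-09), and 14.2% of its exon bases are shared with SYN2, in which it lies.

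TIMP2, which takes part in the activation of gelatinase A at the cell surface, was the most abundant TIMP of 4T1 per length. Timp2 was at 525, 507 and 519 CPM in controls, 806, 798 and 807 with MKL1 (log2 ratio 0.64 ± 0.025, adjusted p = 9.0e-16) and 635, 642 and 640.5 with caMKL1 (log2 ratio 0.31 ± 0.025, adjusted p = 1.0e-10), highest with MKL1. In LM2 TIMP2 was at 236, 234 and 237 CPM in controls and 244, 251 and 230.3 with caMKL1 (0.04 ± 0.081, adjusted p = 0.706), but with library totals the value was -0.37 (adjusted p = 0.00141). In LifeAct high it fell slightly (log2 ratio -0.24 ± 0.037, adjusted p = 2.1e-06). Timp3 summed to 1 count over the 4T1 controls and 44 over the caMKL1 libraries and was not tested. Mouse Timp3 shares 21.3% of its exon bases with Syn3.

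Between the 2 constructs directly, caMKL1 against MKL1, LM2 members moved apart in both directions. ADAMTS9 (5.96 ± 0.19), ADAMTS1 (3.51 ± 0.14), MMP15 (2.13 ± 0.28), ADAM19 (1.41 ± 0.10), ADAM32 (1.36 ± 0.19) and ADAMTS7 (1.20 ± 0.31) were higher with caMKL1. ADAMTS12 (-2.86 ± 0.12), ADAM8 (-2.38 ± 0.30), ADAMTS6 (-2.09 ± 0.11), MMP1 (-1.64 ± 0.26), MMP19 (-1.50 ± 0.24) and ADAM28 (-1.27 ± 0.36) were lower. In 4T1 Mmp17 (4.44 ± 0.23), Adamts8 (3.48 ± 0.084), Adamts5 (2.46 ± 0.059), Mmp28 (2.20 ± 0.18), Adam22 (2.06 ± 0.25) and Adam8 (1.56 ± 0.043) were higher with caMKL1. Adamts9 (-5.70 ± 0.18), Mmp3 (-3.50 ± 0.085), Mmp10 (-3.36 ± 0.17), Mmp9 (-2.70 ± 0.044), Adamts12 (-1.51 ± 0.34) and Adamts14 (-1.44 ± 0.067) were lower. TIMP3 in LM2 did not differ between the constructs by the test (0.18 ± 0.12), and Timp2 in 4T1 was lower with caMKL1 (-0.33 ± 0.025). The MRTFA ranges overlapped between the construct groups of LM2, and in 4T1 Mrtfa was higher with MKL1 than with caMKL1. As the construct sequences are not given, these counts may hold construct reads in unknown part and do not compare the levels of the constructs.

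In the LifeAct experiment the order of the groups could be read gene by gene. Of the 43 tested members 7 had every negative library below every low and every low below every high library, which was 16.3% of members and 16.3% of all genes. They were MMP1, MMP3, MMP19, ADAMTS1, ADAMTS6, ADAMTS9 and ADAMTS16. Another 16 members had the opposite order, 37.2% against 15% of all genes: ADAM8, ADAM12, ADAM17, ADAM19, ADAM22, ADAM32, ADAMTS7, ADAMTS12, ADAMTS14, MMP11, MMP14, MMP16, MMP24, TIMP2, TIMP3 and TIMP4. LifeAct low already differed from negative for ADAM19 (-1.18 ± 0.049), MMP11 (-1.32 ± 0.16), ADAMTS14 (-1.15 ± 0.18), ADAM32 (-1.02 ± 0.13) and the testis gene ADAM20 (-0.94 ± 0.26), all lower. ADAMTS6 (1.22 ± 0.078), ADAMTS16 (0.62 ± 0.089) and MMP19 (0.61 ± 0.099) were higher in low than in negative. From low to high MMP19 (1.94 ± 0.076), ADAMTS9 (1.55 ± 0.28), ADAMTS1 (1.37 ± 0.063), MMP1 (1.18 ± 0.051) and ADAMTS6 (0.96 ± 0.064) rose further. MMP11 (-1.72 ± 0.23), ADAM28 (-1.23 ± 0.25), ADAM8 (-1.06 ± 0.048), ADAMTS14 (-0.93 ± 0.23) and MMP14 (-0.79 ± 0.041) fell between the same groups. ADAMTS13 was also lower in high than in low (log2 ratio -1.03 ± 0.32, adjusted p = 0.00764), a call lost without low replicate 3 or high replicate 1 (adjusted p = 0.115 and 0.0545). Members together took 0.439 to 0.454% of all counts in negative, 0.340 to 0.342% in low and 0.279 to 0.284% in high libraries. MRTFA itself was at 25.7 to 31.0, 30.6 to 36.9 and 38.4 to 43.3 CPM in the 3 groups. The endothelial marker list fell in the same order, with sums of 96.6 to 100.015, 35.4 to 37.4 and 13.9 to 15.8 CPM, of which PECAM1 made up 92.3 ± 1.69, 29.9 ± 0.722 and 7.45 ± 0.8296 (SD, n = 3), while CDH5 was at 0.323 ± 0.183 CPM in negative libraries. Its part in the members' falls was not tested.

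**Figure D5:**
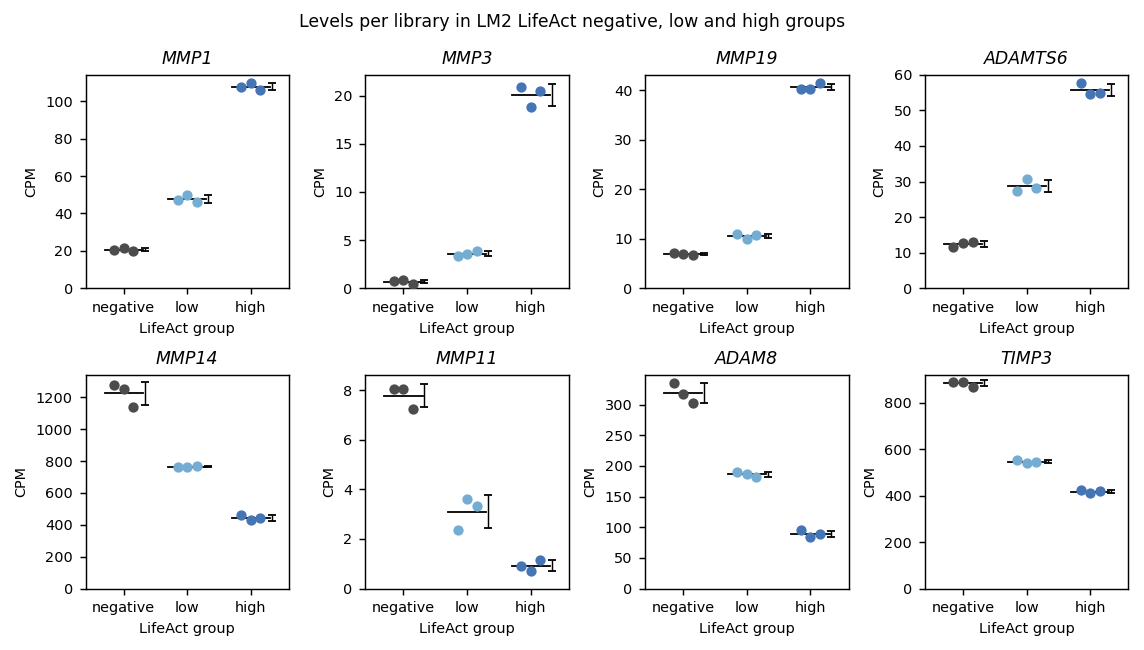
CPM per library (linear axes from 0) of 8 genes in LifeAct negative, low and high groups, with the mean as a line and the SD as a bar beside it. MMP1, MMP3, MMP19 and ADAMTS6 step up and MMP14, MMP11, ADAM8 and TIMP3 step down, with no overlap between groups.

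Of the 21 symbols tested in both lines, 5 were called in both with MKL1 (23.8%, against 7.62% of all 10361 symbols tested in both). ADAM19, ADAMTS1, ADAMTS6 and ADAMTS12 were higher in both (19%, against 3.76%) and ADAMTS9 was opposite (4.76%, against 2.68%), with 0 lower in both (against 1.18%). With caMKL1 11 were called in both (52.4%, against 58.3%). ADAM9, ADAM19 and ADAMTS1 were higher (14.3%, against 16.7%), ADAM10 and TIMP1 lower (9.52%, against 20.5%), and ADAM8, ADAM15, ADAM17, ADAMTS6, ADAMTS9 and MMP14 opposite (28.6%, against 21.1%). The caMKL1 shares called in both and higher in both were near the background. Of the opposite members, the LM2 calls of ADAM15 and ADAM17 were lost without single libraries, and ADAM17 changed sign with library totals. The opposite share is therefore not read as a result about the members. The difference between the lines was tested directly on symbols matched between the tables, in 1 fit with joint scaling, so its value is not exactly the difference of the separate log2 ratios. Of 50 members in that fit 12 (24%, against 19.9% of all) responded differently to MKL1 and 23 (46%, against 60.3%) to caMKL1. Only 21 of the 50 were tested in both lines, and others were at or near 0 in 1 line. Examples with caMKL1 are TIMP4 (0.88 ± 2041) and ADAMTS10 (-1.05 ± 1901), where no difference could be called. The shares are therefore not read as a result about the members. Among those not yet named, MMP19, which fell in LM2 and was not called in 4T1, had a difference of 1.32 ± 0.23, adjusted p = 4.5e-04 with MKL1 and 2.48 ± 0.27, adjusted p = 4.9e-08 with caMKL1. MMP15, which rose with caMKL1 in LM2, had a difference of -2.27 ± 0.33, adjusted p = 3.1e-06. ADAM12 had a difference of 0.45 ± 0.16, adjusted p = 0.0209 with caMKL1, a call lost without LM2 caMKL1 replicate 1 (0.34, adjusted p = 0.0870).

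Genes around these families were described from lists written for this work. Of activators and regulators, which include furin-type convertases and the plasmin system, 5 rose and 2 fell of 21 tested with MKL1 in LM2, beside 7.24% and 4.74% of all genes. With caMKL1 5 rose and 6 fell of the 21, beside 31.9% and 33%, so that fewer were called than the 64.9% of all genes. In 4T1 10 rose and 7 fell of 18 with caMKL1, beside 36.2% and 35.8%. The median log2 ratios were 0.05, -0.03 and 0.28, beside 0.01, -0.05 and -0.02 over all genes. FURIN, which activates MMP14, MMP11 and many ADAMs, rose with caMKL1 in LM2 (2.72 ± 0.14) and 4T1 (1.27 ± 0.036), PCSK5 rose in LM2 (4.30 ± 0.23), and the urokinase receptor gene Plaur rose in 4T1 (2.07 ± 0.044). In LifeAct high 8 of 22 rose, among them TFPI2, an inhibitor of plasmin (2.55 ± 0.070), and 9 fell, both near the background of 36% and 35.2%. Among those that fell was RHBDF2, a partner of ADAM17 (-1.69 ± 0.055).

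Of astacin proteases, their enhancers and ADAMTS-like genes, 7 rose and 1 fell of 11 with caMKL1 in LM2 (31.9% and 33% of all genes), and TLL1 (4.62 ± 0.30), TLL2 (5.66 ± 0.37) and PCOLCE2 (4.03 ± 0.16) were among the risers. In 4T1 2 rose and 5 fell of 8 (36.2% and 35.8% of all genes), with Bmp1, the procollagen C-proteinase, at -1.53 ± 0.030, and in LifeAct high 2 rose and 6 fell of 10 (36% and 35.2%). The medians were 1.02, -0.69 and -0.35, beside -0.05, -0.02 and -0.03 over all genes. Of known substrates 13 rose and 7 fell of 21 with caMKL1 in LM2 (31.9% and 33% of all genes), and 12 rose and 7 fell of 19 in 4T1 (36.2% and 35.8%). In LifeAct high 8 rose and 9 fell of 21, near the 36% and 35.2% of all genes. The list's medians were 1.06, 0.45 and 0.13, beside -0.05, -0.02 and -0.03. Fibronectin rose in both lines (4.78 ± 0.12 and 1.13 ± 0.027) and fell in LifeAct high (-1.84 ± 0.041), tenascin C rose in both (4.05 ± 0.11 and 3.06 ± 0.034), and the EGF receptor ligand HBEGF fell in 4T1 (-1.50 ± 0.050) and rose in LifeAct high (1.39 ± 0.054).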

How the data were processed

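RNA-seq was done on 27 libraries, 3 in each of 9 groups, from TRIzol extracts, per the labels' protocols. The authors deposited whole-number counts for each gene name, with read pairs as the counted unit, per the file headers. The headers name featureCounts v2.0.1, run on alignments by STAR (version not given in the sources used here), with gene models of Ensembl release 103 (GRCh38) or 102 (GRCm38). They show no option for strand or for multi-mapped reads, so overlapping and antisense genes, and reads shared between gene copies, are uncertain. The submitters' processing notes also name DESeq2, with hg38 and mm10 as builds. The LM2 libraries held 22147429 to 32147377 counts, those of 4T1 21896459 to 29370432 and the LifeAct libraries 15581289 to 23678322.

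Counts were tested with edgeR 4.0.16 in R 4.3.3 (filterByExpr with minimum count 10, TMM scaling, quasi-likelihood F test, Benjamini-Hochberg adjustment over all tested names, threshold 0.05) within each experiment, and the difference between lines over 18 libraries on 13113 symbols tested of 16749 matched. Tested names numbered 18893 in LM2, 16297 in 4T1 and 21869 in LifeAct. CPM values are TMM-scaled and fitted log2 ratios use a prior count of 0.125. Where a group had 0 counts it was set to 3 counts over the group, and with 1 to 3 counts the ratio has an exact 95% interval. Intervals cover counting error only. On simulated counts the test recovered 72% of 2-fold changes for LM2 caMKL1, 87.8% for 4T1 caMKL1 and 81.4% for LifeAct high. Only a small set of genes was changed there, about as many up as down and in 1 group. The simulation therefore does not show recovery where most genes change, as in the caMKL1 and LifeAct high groups. Alternatives were DESeq2 1.42.0, limma voom 3.58.1, other scalings and filters, a replicate block, the 6 compared libraries alone and leaving out libraries. In every pair of replicates the counts differed beyond sampling noise.

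The naming rule took MMP1, MMP2, MMP3, MMP9, MMP13, MMP14, ADAM10, ADAM17, ADAMTS9 and the TIMPs, and up to 6 rises and 6 falls with adjusted p under 0.05, at least 1 CPM in a group and no overlap, and up to 6 differences between lines. Of the related lists up to 4 genes with the smallest p were named. Of the related lists 1 gene is not reported here. For genes that recur, values are not printed in every comparison. Other called members and the TATA motif were added after their values were seen. Members and lists were chosen with earlier results of these data known. Sequences are from RefSeq (GRCh38.p14). The table held windows for 39 of the 69 human members.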

Additional observations from a re-analysis of the deposited data

Results flagged for a closer look

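The responses of the 2 lines to a construct were tested against each other for every member matched by symbol (edgeR's quasi-likelihood test of the interaction, Benjamini-Hochberg adjustment over 13113 symbols). Values are the 4T1 response minus the LM2 response on the log2 scale ± SE, for members with at least 1 CPM in a group of each line. Without that limit 12 of 50 members (24%, against 19.9% of all symbols) differed with MKL1. With caMKL1 it was 23 (46%, against 60.3%). The share of all symbols called under the limit was not computed. With MKL1, 10 differed: ADAMTS9 (-2.75 ± 0.35, adjusted p = 1.3e-05), ADAMTS6 (-0.67 ± 0.13, adjusted p = 7.8e-04) and ADAM19 (-0.73 ± 0.11, adjusted p = 1.2e-04) lay below 0. ADAMTS12 (1.31 ± 0.31, adjusted p = 0.00518), ADAM32 (1.55 ± 0.32, adjusted p = 0.00158), ADAM8 (1.00 ± 0.24, adjusted p = 0.00534) and ADAMTS7 (1.44 ± 0.32, adjusted p = 0.00286) lay above 0. So did MMP19 (1.32 ± 0.23, adjusted p = 4.5e-04), TIMP2 (0.55 ± 0.079, adjusted p = 4.7e-05) and ADAM9 (0.39 ± 0.084, adjusted p = 0.00216).

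With caMKL1, 14 differed under the same limit. The 60.3% of all symbols is a share without that limit and is not the background of this count. No matching share was computed, so the count is not read as a result about the members. The value was above 0 for ADAM8 (4.84 ± 0.29, adjusted p = 3.9e-12), ADAMTS12 (2.56 ± 0.40, adjusted p = 1.1e-05), MMP19 (2.48 ± 0.27, adjusted p = 4.9e-08) and ADAM15 (1.94 ± 0.19, adjusted p = 1.2e-08). It was smaller but also above 0 for ADAM22 (1.49 ± 0.25, adjusted p = 2.4e-05), ADAMTS6 (1.38 ± 0.13, adjusted p = 7.0e-09), MMP14 (1.37 ± 0.13, adjusted p = 7.5e-09), ADAM12 (0.45 ± 0.16, adjusted p = 0.0209) and ADAM10 (0.36 ± 0.083, adjusted p = 7.3e-04). It was below 0 for ADAMTS9 (-14.53 ± 0.28, adjusted p = 1.0e-19), ADAMTS1 (-2.44 ± 0.16, adjusted p = 1.7e-11) and MMP15 (-2.27 ± 0.33, adjusted p = 3.1e-06), and for ADAM17 (-1.56 ± 0.11, adjusted p = 1.2e-10) and ADAM19 (-1.36 ± 0.11, adjusted p = 7.3e-10). For ADAM10 both lines fell and the value above 0 means a smaller fall in 4T1. The ADAM12 difference was not called without the first libraries of LM2 MKL1 and caMKL1 (0.34, adjusted p = 0.0661). Line and species cannot be told apart in these differences.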

How the results depend on the processing

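The count of members called stayed within 1.5 times its value in every comparison and under every alternative run. Leaving out 1 library in turn gave 9 to 15 calls for LM2 MKL1, 20 to 26 for LM2 caMKL1, 23 to 24 for 4T1 MKL1, 32 to 37 for 4T1 caMKL1, 27 to 32 for LifeAct low and 33 to 36 for LifeAct high. It gave 24 to 27 for LM2 caMKL1 against MKL1, 33 to 36 for the same in 4T1, 27 to 32 for LifeAct high against low, and 11 to 14 and 21 to 26 for the difference between lines with MKL1 and caMKL1. Of the results for single genes 2735 kept direction and call when a library was left out, 109 lost the call and 1 gained it (MMP9 in LifeAct low without negative replicate 1, adjusted p = 0.0469). Library totals in place of TMM moved the median log2 ratio of all genes to -0.456 in LM2 caMKL1, -0.376 against MKL1 and -0.205 in 4T1 caMKL1 and 0.372 in the caMKL1 difference between lines, and reversed ADAM17 (-0.156) and TIMP2 (-0.371) in LM2 caMKL1; the cause was not tested. The split of higher and lower calls became 7 and 16 in LM2 caMKL1 (9 and 13 with TMM), 10 and 16 against MKL1 (13 and 12), 18 and 16 in 4T1 caMKL1 (21 and 14), and 18 and 7 in the caMKL1 difference between lines (14 and 9). Calls of at least 2-fold in LM2 caMKL1 went from 11 to 17 with library totals and 21 with no filter, where more genes are tested, and in LifeAct high against low from 10 to 6 at a minimum count of 50. DESeq2 lost 14 calls for single genes, limma voom 4 and library totals 12. Deviations from the group means correlated at 0.00304 to 0.297 between same-numbered libraries in LM2 and at -0.0366 to 0.216 in 4T1. Between differently numbered libraries they correlated at -0.317 to 0.177 in LM2 and -0.141 to 0.0797 in 4T1, so same-numbered pairs reached higher. In LifeAct the ranges were -0.033 to 0.00202 and -0.0311 to 0.0448. Whether shared numbers mark shared cultures is not in the labels, and the main test did not pair libraries. With the replicate block the calls were 14 in LM2 MKL1, 23 in LM2 caMKL1 and 22 for the caMKL1 difference between lines, and 2 calls for single genes were lost, both of ADAM21 (LifeAct high against negative, adjusted p = 0.0592, and against low, 0.0523). Members under the filter on low counts could not be tested at this depth.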

Other observations

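Members under the filter on low counts were summed over the 3 libraries of a group, and some had counts almost only with caMKL1. ADAM30, a testis ADAM, had 1 count over the LM2 controls, 0 with MKL1 and 29 with caMKL1 (ratio of caMKL1 to control 33.3, exact 95% counting interval 5.53 to 1361), and Adam30 in 4T1 had 1, 2 and 27 (ratio 30.6, exact 95% counting interval 5.04 to 1251). ADAM5 had 5 counts over the LM2 controls, 4 with MKL1 and 38 with caMKL1. Adam5 in 4T1, which passed the filter through its caMKL1 libraries, was at 0.229, 0.128 and 0.188 CPM in controls, 0.478, 0.282 and 0.547 with MKL1 and 0.711, 1.14 and 0.652 with caMKL1 (log2 ratio 2.21 ± 0.42). These genes were singled out after their values were seen, and the untested ones carry counting error only.

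In 4T1 Mmp25, a leukocyte membrane-type MMP, had 0 counts over the controls, 1 with MKL1 and 24 with caMKL1, at least 9.05-fold higher with the controls set to 3 counts. Adamts13 had 3, 8 and 37 counts (ratio 13.96, exact 95% counting interval 4.42 to 70.8), and Timp3 had 1, 8 and 44 (ratio 49.8, exact 95% counting interval 8.48 to 2011). The Timp3 counts were uneven among the caMKL1 replicates, at 2, 21 and 21. In LM2 MMP13 went the other way, with 33 counts over the controls, 6 with MKL1 and 5 with caMKL1.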
